A study of Rattus norvegicus with 20 samples.

Results

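The highest dose of a perinatal flame retardant feeding study in rats was compared with its control, gene by gene, in the ovary. The 11 arrays were chosen by the dose in their labels, 6 at 60 mg/kg/day and 5 at 0 mg/kg/day, of 20 arrays in all. Each array held RNA of the entire frozen ovaries of 1 female Sprague-Dawley rat aged 46 days, and the animals came from independent litters. Dams of the 60 mg/kg/day group ate a diet with 750 mg per kg of a mixture of brominated flame retardants, meant to deliver that dose by body weight, starting at least a week ahead of mating and ending when the pups were weaned at day 21 after birth. The blend was 52.1% DE-71 and 0.4% DE-79 (commercial polybrominated diphenyl ethers), 44.2% BDE-209 (a fully brominated diphenyl ether) and 3.3% HBCD (hexabromocyclododecane). Dams of the 0 mg/kg/day group ate the diet with 0 mg per kg. The daughters themselves were killed weeks after the feeding ended. Sprague-Dawley is an outbred stock, so animals of a group may differ in genotype. The other arrays, at 0.06 and 20 mg/kg/day, entered the estimate of the spread and are set beside some values below; all doses share the same control arrays.

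At this age the rat ovary holds follicles of every stage, in which granulosa and theca cells surround the oocyte and make steroids together, and, around the onset of cycling, corpora lutea. Macrophages live throughout the stroma and clear dying follicles and old luteal tissue, and granulosa cells of growing follicles account for most cell division. Some constituents of brominated flame retardant mixtures are known as ligands of the nuclear receptors CAR and PXR, and dioxin-like compounds act through the aryl hydrocarbon receptor, AhR.

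Levels are log2 of the array signal relative to the 75th percentile of the same array, which is 0 on this scale, and differences are 60 minus 0 mg/kg/day. On these 11 arrays that percentile was a processed signal between 1158 and 1737, with 75.05% to 83.38% of spots well above background. Levels of all probes correlated between 2 arrays with r of 0.982 to 0.992 within 60 mg/kg/day and of 0.970 to 0.988 within 0 mg/kg/day. Markers of the ovary were bright: the steroidogenic enzyme Cyp11a1 had a level of 7.18 ± 0.20 (SD, n = 6) at 60 and 6.99 ± 0.26 (SD, n = 5) at 0 mg/kg/day, and the granulosa hormone subunit Inha 5.53 ± 0.21 and 5.70 ± 0.12. In whole ovaries fewer cells of a type and less RNA per cell cannot be told apart.

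No gene passed the test. Of 23274 probes, limma called 0% at an adjusted p under 0.05, and the lowest adjusted p, by the Benjamini-Hochberg method, was 0.782. At an unadjusted p under 0.05 there were 1464 probes, 6.29% of those tested, of which 655 (2.81%) were higher and 809 (3.48%) lower at 60 mg/kg/day. This split moved with the scaling, to 816 higher and 675 lower after quantile normalization, 1117 and 389 after normexp background correction, and 753 and 681 in the authors' deposited table. All 60 mg/kg/day arrays lay above all 0 mg/kg/day arrays for 50 probes (0.215%) and below them for 58 (0.249%). The 3 slides that carried the arrays each held both groups, and 80.6% of the first principal component of all 20 arrays, itself 25.0% of the variance, lay between slides. Everything named below is therefore given as a value that did not pass, and none of the genes named had an adjusted limma p under 0.782. Counts at an unadjusted p under 0.05 are a description. Differences within slides, given below, rest on few arrays. Slide 1 held 2 treated and 2 control arrays, slide 2 held 3 and 1, and slide 3 held 1 and 2. The 1 control on slide 2 was replicate 3, and the 1 treated array on slide 3 was replicate 6. A sign shared by the slides is therefore a description and not a replicated test.

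**Figure D1:**
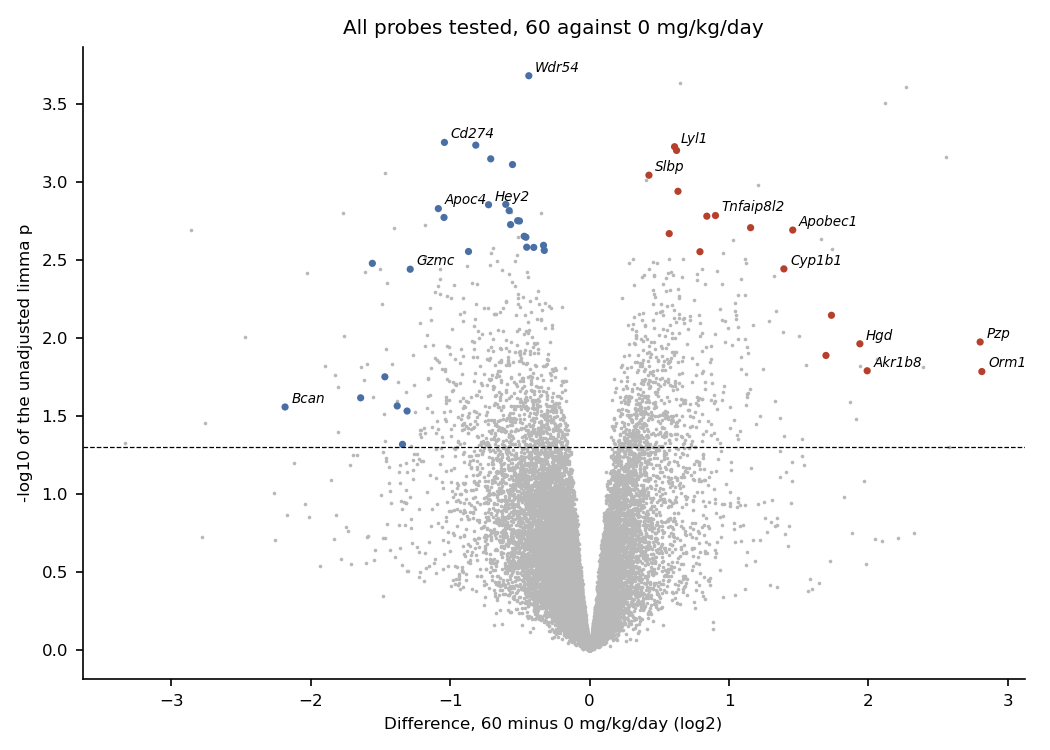
Each point is a probe, with its log2 difference between 60 and 0 mg/kg/day against the -log10 of its unadjusted limma p. The dashed line marks an unadjusted p of 0.05, coloured points are the genes of smallest p and of the largest differences (red higher, blue lower at 60), and no point reached an adjusted p under 0.05.

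Among the 30 genes of smallest p, 10 had a higher and 20 a lower mean at 60 mg/kg/day. Most differences were modest, under a doubling of signal. Wdr54, a WD-repeat protein gene, had the smallest p among them. Its level was -4.50 at the lowest, -4.12 at the median and -3.98 at the highest of the 60 mg/kg/day arrays, against -3.78, -3.75, -3.61, -3.68 and -3.87 on the 0 mg/kg/day arrays. The groups did not overlap, and the difference was -0.44 ± 0.09 (SE). It was of the same sign within each slide, at -0.44, -0.61 and -0.21.

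Genes of immune cells stood on both sides of this list. Cd274 encodes PD-L1, the ligand by which cells restrain T cells. It was not well above background on any 60 mg/kg/day array and well above it on every 0 mg/kg/day array, where its levels were -5.78, -6.82, -5.87, -6.72 and -5.98. The 60 mg/kg/day level was at least 1.68-fold lower, a bound set by the lowest signal that counts as well above background. Cd274 was admitted to the named genes through the controls alone, where it is brighter, so this contrast is a description. Its list of antigen presentation and checkpoint genes had 7 of 13 differences above 0 and a median of 0.02. Nfkb2, an NF-kappaB subunit, had a level of -0.79, -0.70 and -0.48 at the lowest, median and highest 60 mg/kg/day array, against 0.30, -0.35, -0.36, 0.03 and -0.66 on the 0 mg/kg/day arrays. The groups overlapped, and the difference was -0.45 ± 0.13 (SE).

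Several signalling genes of myeloid cells had higher means at 60 mg/kg/day. Dok3 encodes an adaptor that damps signals in macrophages and B cells. Its level ran from -2.74 to -2.04 with a median of -2.43 at 60 mg/kg/day, against -3.20, -2.80, -2.98, -2.90 and -3.28 at 0 mg/kg/day. No array of one group reached the other, and the difference was 0.62 ± 0.15 (SE). Lyl1, a transcription factor of blood cell progenitors, also showed no overlap, with -0.80, -0.50 and -0.26 as lowest, median and highest at 60 mg/kg/day against -1.28, -0.94, -0.99, -1.04 and -1.40 at 0 mg/kg/day, a difference of 0.61 ± 0.15 (SE). Its list, blood and endothelial transcription factors, had 3 of 10 differences above 0 and a median of -0.08, beside 39.6% of all probes above 0. Lyl1 was the 1 member of that list at an unadjusted limma p under 0.05. Tnfaip8l2, an inhibitor of innate and T cell activation, differed by 0.90 ± 0.24 with 4 of 6 treated arrays above every control. Igsf6, an immunoglobulin-family receptor of myeloid cells, differed by 0.84 ± 0.23 with 5 of 6 above.

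Apobec1, the cytidine deaminase that edits apolipoprotein B mRNA, was among the larger differences of the 30 genes. Its level was -2.20, -0.90 and -0.31 at the lowest, median and highest 60 mg/kg/day array, against -3.30, -2.22, -2.005, -2.32 and -2.78 at 0 mg/kg/day. 5 of 6 treated arrays lay above every control, and the difference was 1.46 ± 0.40 (SE). Scara5, a ferritin receptor, differed by 0.79 ± 0.23, and a second probe of it by 1.04. Ly49si2, of the killer lectin-like receptor family of NK cells, differed by 1.15 ± 0.32 with all 6 arrays above the controls, while Cd7, a T and NK cell surface protein, differed by -0.50 ± 0.14 with all 6 below. Genes of the Ly49 family are near-identical copies, so which of them the Ly49si2 probe measures is uncertain.

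Slbp, which binds the stem-loop of histone mRNAs in dividing cells, was measured by 2 probes that differed alike, by 0.43 ± 0.11 (SE) and 0.41. Its level ran from -1.87 to -1.43 with a median of -1.68 at 60 mg/kg/day, against -2.05, -2.04, -1.995, -2.40 and -2.01 at 0 mg/kg/day. The groups did not overlap. Tnnt2, the cardiac troponin T gene, differed by 0.63 ± 0.16 and had the troponins Tnni1 and Tnnt1 beside it at 0.68 ± 0.22 and 0.49 ± 0.21. In the striated muscle list these were the 3 higher of 11 measured, and the list's median was -0.17. The listed troponin Tnnc1 was not among the 3. Its heavy chain Myh6 differed by -1.17.

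The receptors Npy1r, for neuropeptide Y, and Gpr37, an orphan receptor of the endothelin receptor family, had lower means. Npy1r had a level of -4.90, -4.70 and -4.50 at the lowest, median and highest 60 mg/kg/day array, against -2.96, -3.69, -4.26, -4.44 and -4.07 at 0 mg/kg/day. All treated arrays lay below all controls, and the difference was -0.82 ± 0.20 (SE), with values of -0.70 at 0.06 and -0.53 at 20 mg/kg/day against the same controls. Gpr37 differed by -0.71 ± 0.17 with no overlap and was well above background on 3 of 6 treated arrays. Ptger2, a prostaglandin E2 receptor of the cumulus cells around the oocyte, differed by -0.87 ± 0.25 with no overlap, and the values at the lower doses were -0.83 and -0.57. Hey2, a transcriptional target of Notch, differed by -0.37 at its brighter probe and by -0.72 ± 0.19 at a dim one of smaller p, which was well above background on 2 of 6 treated arrays. P3h2, a collagen prolyl hydroxylase, differed by -0.57 ± 0.16.

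**Figure D2:**
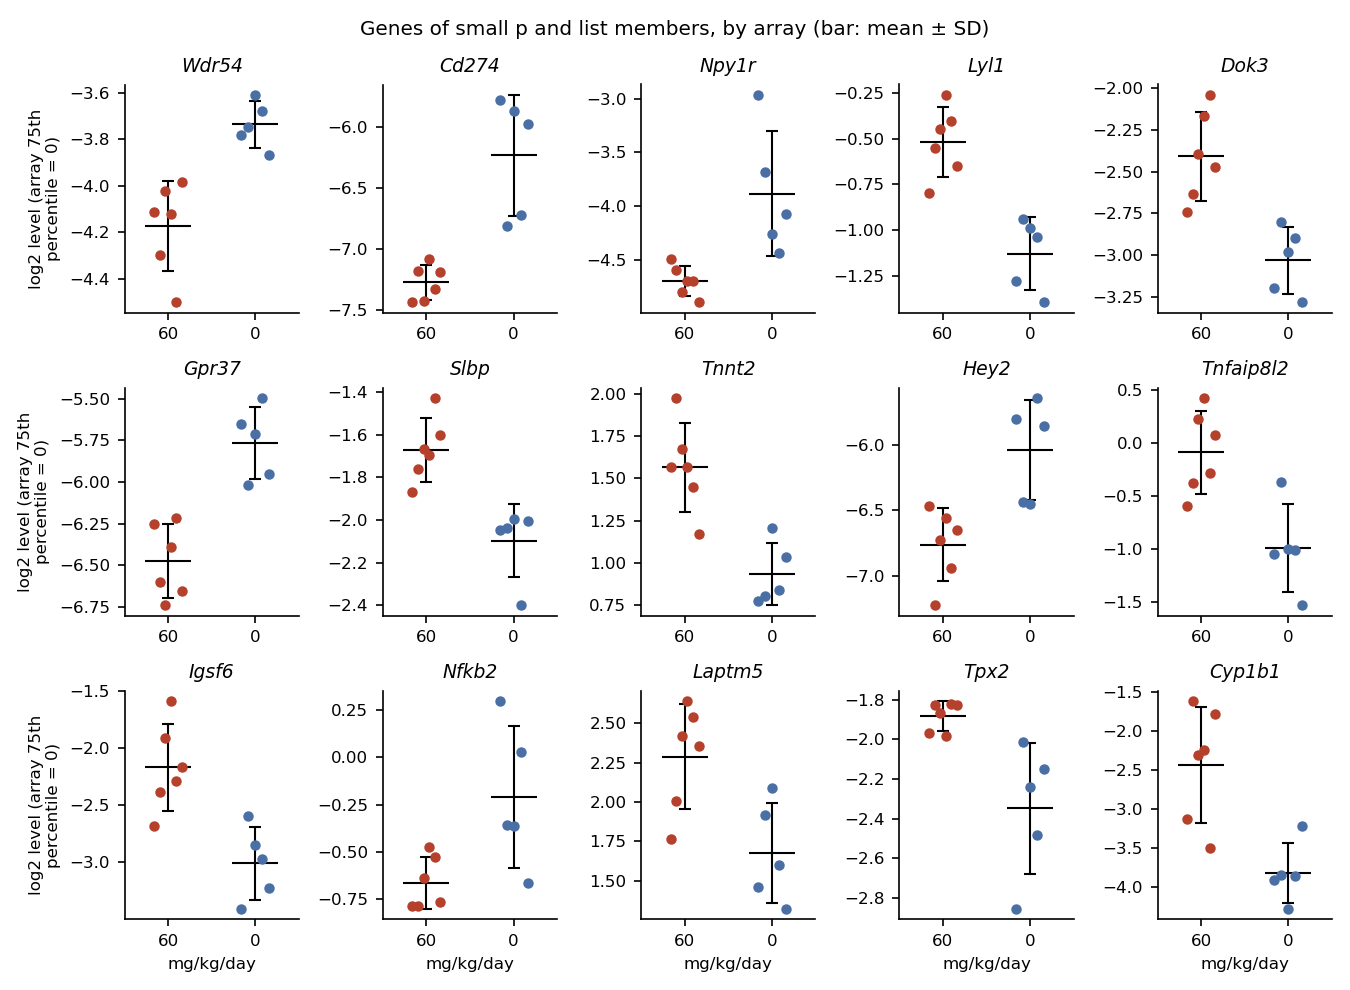
Each panel plots the log2 level of 1 gene relative to the array's 75th percentile, with 60 mg/kg/day (6 arrays, red) left of 0 mg/kg/day (5 arrays, blue); bars are mean ± SD. Wdr54, Lyl1, Dok3, Slbp and Tpx2 showed no overlap between the groups, while Tnfaip8l2, Nfkb2 and Laptm5 overlapped.

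Larger differences among the genes at an unadjusted p under 0.05 belonged to genes with a wide spread among animals. Orm1 and Pzp, both plasma proteins better known from liver, differed by 2.81 ± 1.06 and 2.80 ± 0.98. The level of Pzp was -1.91, 0.43 and 1.33 at the lowest, median and highest 60 mg/kg/day array, against -4.14, -2.54, 0.93, -3.68 and -3.70 at 0 mg/kg/day. Replicate 3 of the controls lay among the treated arrays, and within the slide that holds it Pzp differed by -0.20. Akr1b8, an aldo-keto reductase, did likewise, with control replicate 3 at 2.89 and the others between -0.84 and 0.23, and it differed by 1.99 ± 0.75. Hgd, of tyrosine breakdown, and Ephx2, soluble epoxide hydrolase, differed by 1.94 ± 0.68 and 1.70 ± 0.61. Hgd was well above background on 3 of 5 controls, and Ephx2 was at -6.60 and -6.32 in 2 controls only. RT1-M2, a class I histocompatibility gene, differed by 1.73 ± 0.57, and a probe of this family can bind near-identical copies.

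The lowest differences by the same rule were those of Bcan, Armh1, Vom2r55, Lkaaear1, Cdkl2, Cfap161, Drgx and Gzmc. Bcan, a brain proteoglycan, differed by -2.18 ± 0.91 and was at 1.82 in control replicate 5, against -1.05, -1.33, -3.42 and -1.49 in the other controls and -3.91, -3.30 and -2.55 as lowest, median and highest at 60 mg/kg/day. A second Bcan probe differed by -0.56, and within slide 2 the first differed by 0.32. Gzmc, a granzyme of cytotoxic lymphocytes, was not well above background at 60 mg/kg/day and at least 1.71-fold lower there. Like Cd274 it was admitted to the named genes through the controls alone. Armh1, Lkaaear1 and Cfap161, of which Cfap161 is a cilium protein, were highest in control replicates 2 and 4: Cfap161 had -4.27 and -3.86 there, -6.99, -6.90 and -6.06 in the other controls and -7.60, -6.90 and -6.22 as lowest, median and highest at 60 mg/kg/day. Cfap161 was well above background on 3 of 6 treated arrays and Armh1 on 2. Both control arrays also carried the oviduct markers described below.

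One transcript outside the rule for named genes, chosen after its values were seen, was 2200002J24Rikl, a protein-coding gene on chromosome 1 (GRCr8) with 3 probes. The first differed by 2.12 ± 0.48 and was well above background on 6 treated and 4 of 5 control arrays. The first probe had levels of -4.68, -4.33 and -3.82 as lowest, median and highest at 60 mg/kg/day, against -6.45, -6.27, -5.25, -6.83 and -7.13 at 0 mg/kg/day. All 6 treated arrays lay above all controls for this probe. The second probe differed by 2.56 ± 0.63 but was well above background on 2 of 5 controls only. The third was not well above background on any control and at least 2.54-fold higher at 60 mg/kg/day. Against the same controls the first probe had 0.98 at 0.06 and 2.02 at 20 mg/kg/day. What the gene does is not stated in the sources used here.

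Among the exposure genes, the AhR target Cyp1b1, a cytochrome P450 that oxidises estrogens, gave the clearest value. Its level was -3.50, -2.27 and -1.61 as lowest, median and highest at 60 mg/kg/day, against -3.91, -3.85, -4.28, -3.85 and -3.22 at 0 mg/kg/day. 5 of 6 treated arrays lay above every control, and the difference was 1.39 ± 0.42 (SE). It was positive within each slide, at 1.51, 1.60 and 1.76, and was 0.95 at 0.06 and 0.83 at 20 mg/kg/day. The receptor Ahr itself differed by -0.56 ± 0.28. Of the 8 measured genes of the AhR axis 6 lay above 0, with a median of 0.08, beside 39.6% of all probes above 0 and an overall median of -0.04. Leaving out 1 array gave 4 to 6 above 0 and medians of 0.02 to 0.17, and within slide 2 there were 2 of 8 with a median of -0.15. After normexp 6 of 8 were above 0, beside 56.7% of all probes. Next highest in the list after Cyp1b1 were the AhR targets Ugt1a6 and Nqo1, at 0.42 and 0.41. Cyp1b1 was the 1 member at an unadjusted limma p under 0.05. Of the 6 measured genes of the CAR and PXR axis 1 was higher, the drug exporters Abcb1a and Abcc3 had -0.91 ± 0.38 and -0.26 ± 0.12, and Rxra, the partner receptor, had 0.34 ± 0.15.

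The 250 bases before the Cyp1b1 start are shown because AhR binds a short core motif, GCGTG, which is in capitals where a search found it on either strand (GRCr8, + strand, chr6:21094315-21094564, from RefSeq).
Cyp1b1: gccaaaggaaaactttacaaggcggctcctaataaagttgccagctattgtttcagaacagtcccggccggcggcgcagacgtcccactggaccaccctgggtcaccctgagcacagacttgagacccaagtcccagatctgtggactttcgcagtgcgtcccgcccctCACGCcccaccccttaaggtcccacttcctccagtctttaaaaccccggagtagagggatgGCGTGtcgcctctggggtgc
The motif occurred 2 times there and in 6 of 8 promoters of the AhR list found in the table, against 27.2% of all 27457 promoters, and the longer form TNGCGTG in 2 of 8 against 4.26%. These matches are a description of the letters in the window.

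Macrophage markers were higher as a list, which like the other lists was chosen with earlier results of these data known. Of 23 measured, 20 lay above 0 and 10 were higher at an unadjusted p under 0.05 against a background of 2.81%, with 0 lower; the median difference was 0.50 and the members ran from -0.57 to 0.79. 0 members passed the adjusted test. The counts of 20 above 0 also held under quantile normalization, normexp and the authors' deposited table. The lysosomal membrane protein Laptm5 had a level of 1.76, 2.39 and 2.64 as lowest, median and highest at 60 mg/kg/day, against 1.46, 1.92, 2.09, 1.60 and 1.32 at 0 mg/kg/day. The groups overlapped in part, with 4 of 6 treated arrays above every control, and the difference was 0.61 ± 0.21 (SE).

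The other defining genes gave like values. Cd68, a macrophage lysosomal glycoprotein, had 0.30, 1.17 and 1.85 as lowest, median and highest at 60 mg/kg/day against 0.00, 0.47, 0.92, 0.41 and -0.32 at 0 mg/kg/day, and differed by 0.79 ± 0.32 (SE). Aif1, Lyz2 and Csf1r, for a calcium-binding protein, lysozyme and the receptor of the macrophage growth factor, differed by 0.61 ± 0.24, 0.53 ± 0.21 and 0.54 ± 0.22. Adgre1, the F4/80 antigen, differed by 0.67 ± 0.33. Fcgr3a, Cx3cr1 and Cd14 were below 0, at -0.57, -0.32 and -0.12, and none of them had a p under 0.05.

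The list mean by array was not even. Relative to the mean of the controls it was -0.05, 0.29, 0.33, 0.66, 0.85 and 0.44 on the 60 mg/kg/day arrays, against -0.27, 0.05, 0.46, 0.00 and -0.24 at 0 mg/kg/day, so treated replicate 1 lay among the controls and control replicate 3 among the treated. The summed linear level of the markers was 41.8 to 74.5 at 60 and 34.5 to 56.7 at 0 mg/kg/day. Within slides the median difference was 0.22, 0.14 and 0.60. With any 1 array left out 20 members were above 0, while the number at an unadjusted p under 0.05 ran from 3 without control replicate 1 to 16 without control replicate 3; it was 15 without treated replicate 1, and 4 and 5 without treated replicates 4 and 5. Without slide 2 or slide 3 it was 0. At 0.06 and 20 mg/kg/day the list had medians of 0.27 and 0.42 against the same controls.

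Leukocyte signalling genes, a list that includes Dok3, Tnfaip8l2 and Igsf6, had 20 of 23 above 0 and a median of 0.29. At an unadjusted p under 0.05, 7 were higher and 0 lower. Dok3, Tnfaip8l2 and Igsf6 are among the 7 and were already named above for their small p. The count repeats them and is not separate support. Within slides the median was 0.03 (12 of 23 above 0), 0.08 (13 of 23) and 0.48 (20 of 23), and with slide as a block 0.18. Without treated replicate 5 it was 0.16. Fermt3, the integrin activator kindlin-3, differed by 0.67 ± 0.23, Btk, the B cell and myeloid tyrosine kinase, by 0.56 ± 0.22, and Vav1, a signal transducer of blood cells, by 0.66 ± 0.27. The list mean by array again put treated replicate 1, at -0.10, within the controls, whose highest, replicate 3, was at 0.34. The number at an unadjusted p under 0.05 was 12 without control replicate 3, 11 without treated replicate 1, and 4 and 2 without slides 2 and 3. Many members of both lists are made by the same cells, so the lists are not independent of each other.

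Laptm5 is shown with 250 bases before its start (GRCr8, + strand, chr5:148371630-148371879, RefSeq), since transcription factors of the ETS family, among them the macrophage regulator PU.1, bind purine-rich sites of which one form, GGAAGT, is in capitals where found on either strand.
Laptm5: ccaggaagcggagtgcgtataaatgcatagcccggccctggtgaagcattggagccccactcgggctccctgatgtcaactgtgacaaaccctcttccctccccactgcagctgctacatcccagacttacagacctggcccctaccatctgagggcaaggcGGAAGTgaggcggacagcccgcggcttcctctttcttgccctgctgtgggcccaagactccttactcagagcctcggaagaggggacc
GGAAGT was in 9 of 16 promoters of the macrophage list against 19.5% of all promoters, and GAGGAA in 12 of 16 against 23.2%. The longer GAGGAAGT, which contains both, was in 2 of 16 against 2.04%, and in 1 of 17 promoters of the leukocyte signalling list.

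Lymphocyte markers lay the other way. Of 14 T and NK cell markers 3 were above 0, 4 were lower at an unadjusted p under 0.05 against a background of 3.48%, and 1 higher; the median was -0.22, and 3 or 4 members were above 0 under every scaling. After quantile normalization 2 were lower and 1 higher at that p. After normexp 1 was lower and 2 were higher, with a median of -0.10. The 4 were Cd7, the interleukin-2 receptor chain Il2rb at -0.50 ± 0.20, the cytotoxic granule protein Prf1 at -0.57 ± 0.24 and the granzyme Gzma at -0.57 ± 0.26. Cd7 had a level of -3.33, -3.24 and -3.11 as lowest, median and highest at 60 mg/kg/day, against -3.10, -2.58, -2.71, -2.36 and -2.88 at 0 mg/kg/day, with no overlap. Cd7 was already named above for its small p, so counting it here is not separate support. The higher one was Cd4, at 0.50 ± 0.22, a co-receptor that rat macrophages also carry. The number of lower members was 1 without control replicate 1 or without control replicate 4, 2 without control replicate 2 or treated replicate 2, and 5 without control replicate 3 or treated replicate 1. Within slides the median was -0.29, -0.06 and -0.37, with 7 of 14 above 0 in slide 2. Of 13 mast cell and granulocyte markers 4 were above 0, a share near that of all probes, with 8 above 0 after normexp and 9 within slide 2. Of these 13, 1 had an unadjusted p under 0.05: the mast cell protease Mcpt9 differed by -0.55 ± 0.14 with no overlap. Mcpt9 is itself among the 30 genes of smallest p.

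**Figure D3:**
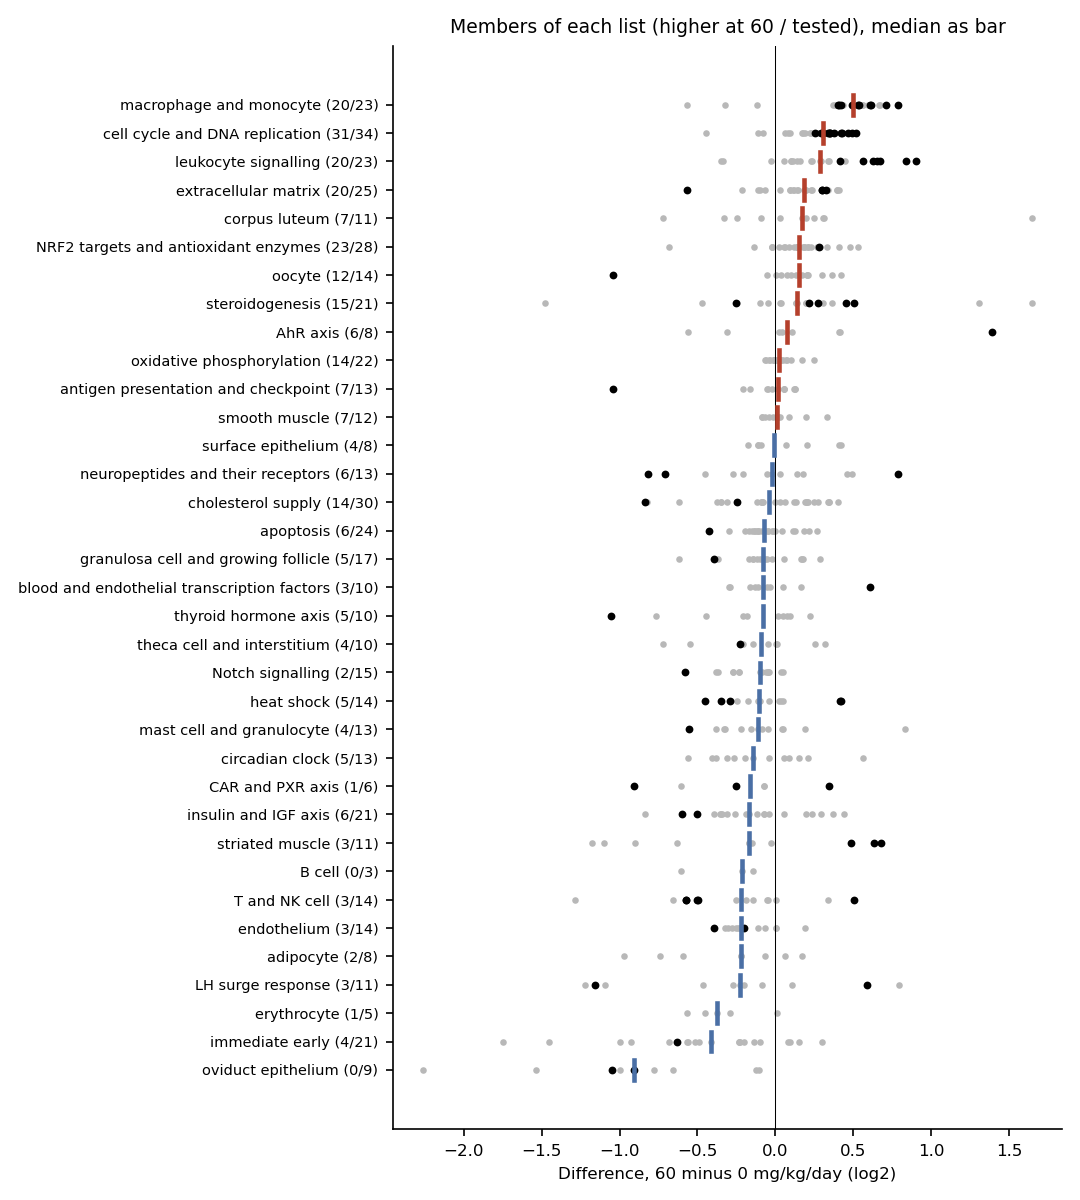
Each row is a list of genes, with the count of members higher at 60 mg/kg/day over members tested; points are the members' log2 differences between 60 and 0 mg/kg/day, black where the unadjusted limma p is under 0.05, and the coloured bar is the median. The macrophage list is at the top with 20 of 23 members above 0, and the oviduct list at the bottom with 0 of 9.

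Cell cycle and DNA replication genes were higher by small amounts. Of 34 measured, 31 lay above 0, also under each other scaling, and 14 were higher and 0 lower at an unadjusted p under 0.05, beside 2.81% and 3.48% of all probes, with a median of 0.31. Tpx2, a spindle assembly factor, showed no overlap. Its level was -1.98, -1.85 and -1.82 as lowest, median and highest at 60 mg/kg/day, against -2.85, -2.01, -2.24, -2.48 and -2.15 at 0 mg/kg/day, and it differed by 0.46 ± 0.16 (SE).

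Factors that license and load DNA replication gave similar sizes. Cdc6, which loads the replicative helicase, differed by 0.52 ± 0.19, Mcm3, a subunit of that helicase, by 0.43 ± 0.15, and Rrm2, which makes deoxynucleotides, by 0.49 ± 0.18, with second probes of Mcm3 and Rrm2 at 0.37 and 0.64. Among mitotic genes the cyclin Ccna2 had 0.42 ± 0.16 and the proliferation marker Mki67 0.31 ± 0.14, with other probes of Mki67 at 0.26 and 0.26. Pcna, the replication clamp, had 0.09 ± 0.10, and the kinases Aurka and Aurkb had -0.44 ± 0.37 and -0.11 ± 0.24.

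The list mean by array was 0.32, 0.53, 0.29, -0.03, 0.08 and 0.37 at 60 mg/kg/day, against -0.19, 0.26, 0.07, -0.18 and 0.03 at 0 mg/kg/day. Treated replicates 4 and 5 thus lay among the controls; these 2 had the highest means of the macrophage list. Within slides the median was 0.47, 0.04 and 0.50. Without 1 array, 31 or 32 members were above 0, and the number at an unadjusted p under 0.05 was 3 without control replicate 1 and 3 without control replicate 4, 5 and 6 without treated replicates 6 and 2, 9 without treated replicate 3, and 22 without control replicate 2 or treated replicate 4. It was 3, 22 and 1 without slide 1, 2 and 3. At 0.06 and 20 mg/kg/day the list medians were 0.01 and 0.15.

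Mki67 is shown because CCAAT boxes and the element TTTGAA are common in promoters of cell cycle genes; both are in capitals on either strand, and 1 CCAAT match overlaps a TTTGAA match (GRCr8, - strand, chr1:199952594-199952843, RefSeq).
Mki67: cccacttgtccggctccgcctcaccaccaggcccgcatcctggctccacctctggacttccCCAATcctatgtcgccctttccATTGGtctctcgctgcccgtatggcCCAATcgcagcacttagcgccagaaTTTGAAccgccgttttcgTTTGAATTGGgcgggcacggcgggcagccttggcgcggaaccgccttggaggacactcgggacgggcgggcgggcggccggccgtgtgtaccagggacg
CCAAT was in 19 of 26 promoters of the list against 34.3% of all promoters, and TTTGAA in 9 of 26 against 16.03%. The E2F-type strings TTTCGCGC and GCGGGAA were in 5 of 26 against 0.262% and in 3 of 26 against 3.58%. In all, 9 different motifs were searched on both strands, and all are given here.

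**Figure D4:**
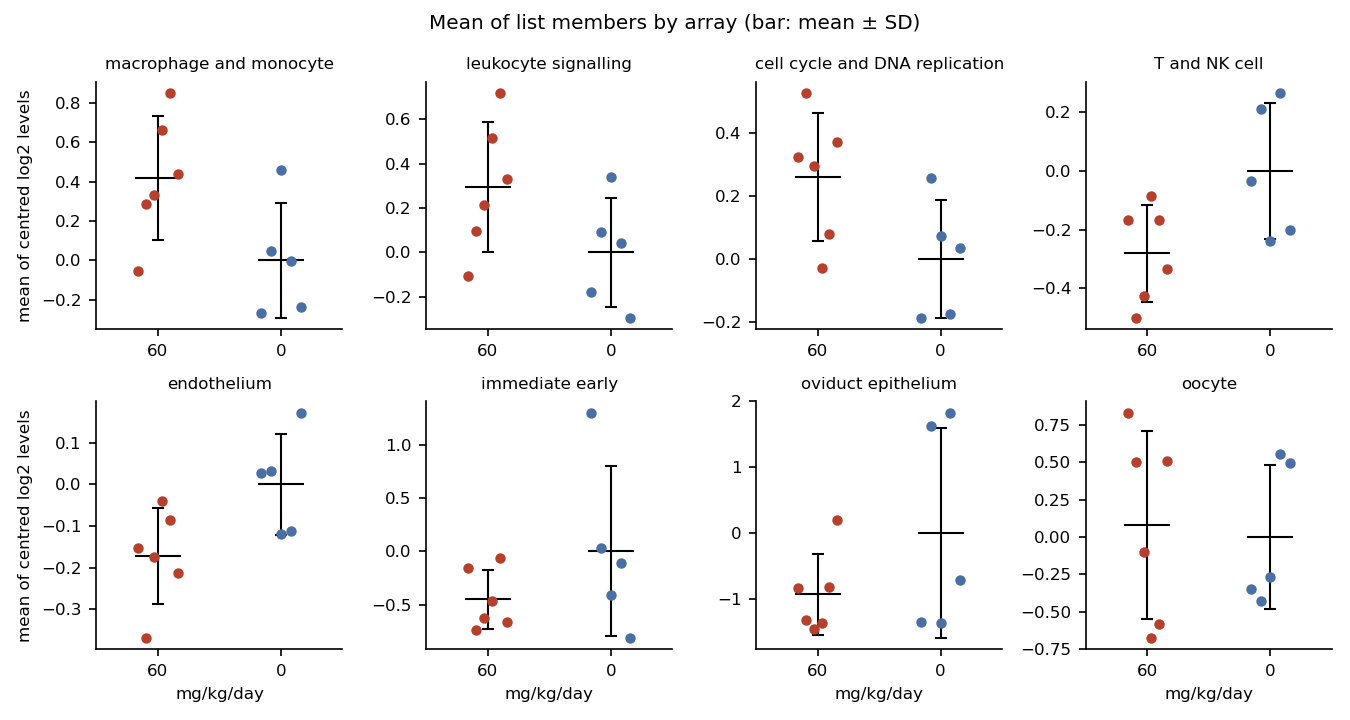
Each point is 1 array, and its height is the mean over the measured members of a list of the log2 level minus that member's mean at 0 mg/kg/day; 60 mg/kg/day (6 arrays, red) is left of 0 mg/kg/day (5 arrays, blue), and bars are mean ± SD. The groups overlap in each of the 8 lists, and control replicates 2 and 4 stand at 1.62 and 1.83 in the oviduct list.

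Ovarian cell types and steroid synthesis showed little. Of 21 steroidogenesis genes 15 were above 0 with a median of 0.14, and 4 were higher and 1 lower at an unadjusted p under 0.05, beside 2.81% and 3.48% of all probes. The 4 became 0 without treated replicate 3, 1 without treated replicate 4 or 6 or without control replicate 1, 4 or 5, and 0 without slide 2 or 3. Within slide 1, 10 of 21 were above 0 with a median of -0.06. Nr5a2, the nuclear receptor LRH-1 of granulosa and luteal cells, had 0.74, 0.89 and 1.08 as lowest, median and highest at 60 mg/kg/day, against 0.52, 0.38, 0.68, 0.27 and 0.42 at 0 mg/kg/day. The groups did not overlap, and the difference was 0.45 ± 0.19 (SE), with 0.47 from a second probe. The electron donors of steroidogenic enzymes Por and Fdxr had 0.51 ± 0.23 and 0.27 ± 0.13, and Hsd17b4 had 0.22 ± 0.10, while Hsd17b12 had -0.25 ± 0.11. Star, which carries cholesterol into mitochondria, and Cyp11a1, the first enzyme of the pathway, differed by 0.30 ± 0.23 and 0.20 ± 0.16.

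Of 17 granulosa markers 5 were above 0 with a median of -0.08. This turned to 9 of 17 and 0.01 with slide as a block, 12 of 17 and 0.14 within slide 1, 9 of 17 and 0.02 without treated replicate 5, and 10 of 17 and 0.05 without slide 2. The estrogen receptor Esr2 had -0.40 ± 0.18, and its other probes -0.02 and -0.20. Anti-Müllerian hormone, Amh, differed by -0.37 ± 0.36 and the FSH receptor Fshr by -0.05 ± 0.23. Esr1, the other estrogen receptor, differed by 0.26 ± 0.23. Of 14 oocyte markers 12 were above 0, 13 under each other scaling, with a median of 0.15 that was 1.19, -0.22 and 0.10 within the slides; Gdf9 and Zp3, of the oocyte and its coat, had 0.17 ± 0.30 and 0.21 ± 0.24. Kit, a receptor of oocytes and theca cells, had -4.49, -3.29 and -2.47 as lowest, median and highest at 60 mg/kg/day against -1.84, -2.15, -3.50, -2.49 and -1.64 at 0 mg/kg/day, a difference of -1.04 ± 0.39 (SE), and its ligand Kitlg had -0.08 ± 0.10.

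The lists of antioxidant, extracellular matrix, endothelial and Notch genes leaned one way in the pooled arrays but not within every slide. No member of these lists, or of those in the next paragraph, passed the adjusted test. Of 28 NRF2 targets and antioxidant enzymes 23 were above 0 with a median of 0.15, while within slide 1 there were 10 of 28 with a median of -0.11. Gclc, of glutathione synthesis, had the smallest p at 0.28 ± 0.12, and Hmox1, heme oxygenase, had the highest difference at 0.53 ± 0.28. Of 25 extracellular matrix genes 20 were above 0 with a median of 0.18, and 11 with -0.05 within slide 2, with the proteoglycan Bgn at 0.30 ± 0.12. Of 14 endothelial markers 3 were above 0 with a median of -0.22, and 9 with 0.07 within slide 2, and the tight junction protein Cldn5 had -0.39 ± 0.16. Of 15 Notch genes 2 were above 0 with a median of -0.10, and 8 with 0.02 within slide 2, and the ligand Dll4 had -0.58 ± 0.21 with a second probe at -0.91.

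Of 21 insulin and IGF genes 6 were above 0, beside 39.6% of all probes, with a median of -0.17. Within slides this median was -0.075, -0.04 and -0.18. The lipid kinase Pip4k2b had -0.60 ± 0.16 and the binding protein Igfbp5 -0.50 ± 0.20. Pip4k2b is also among the 30 genes of smallest p, so it is not separate support. Of 24 apoptosis genes 6 were above 0 with a median of -0.07, which was -0.13, -0.06 and -0.04 within slides. Cflar, an inhibitor of caspase-8, had -0.43 ± 0.18. Of 14 heat shock genes 5 were above 0, a share near that of all probes, with a median of -0.10. The co-chaperone Bag3 had -0.29 ± 0.09 and the mitochondrial chaperonin Hspd1 0.42 ± 0.18. Of 30 cholesterol supply genes 14 were above 0 with a median of -0.04, like that of all probes. Idi1, of isoprenoid synthesis, had -0.84 ± 0.31.

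Control arrays stood out in a pair of lists. Immediate early genes, which respond within minutes to stimulation and handling, had 4 of 21 above 0 and a median of -0.41, and control replicate 1 stood at a list mean of 1.30 against at most 0.03 in the other controls; without it the median was -0.07. Fos had -0.93 ± 0.56. Oviduct epithelium markers had 0 of 9 above 0 and a median of -0.91 (2 of 9 above 0 after normexp), with list means of -0.84, -1.32, -1.46, -1.37, -0.83 and 0.20 at 60 mg/kg/day against -1.36, 1.62, -1.37, 1.83 and -0.72 at 0 mg/kg/day. The summed linear level was 0.694 to 1.18 at 60 and 0.866 to 4.87 at 0 mg/kg/day. Without control replicates 2 and 4, left out together after seeing the data, 6 of 9 were above 0 with a median of 0.22, the macrophage list had 20 of 23 above 0, of which 6 had an unadjusted p under 0.05, and the cell cycle list 31 of 34, of which 12 did. The part of oviduct tissue in the differences of Cfap161, Armh1 and Lkaaear1 was not tested.

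Some genes varied far more among the treated animals than between groups. Cyp17a1, the theca enzyme that makes androgens, had 2.97, 3.86, 2.85, 3.51, -3.52 and 2.05 on the 6 treated arrays, against 3.47, 3.13, -2.62, 3.33 and 2.69 at 0 mg/kg/day. Treated replicate 5 and control replicate 3 stood far below all others, and the group difference was -0.05 ± 1.68. The same arrays were the lowest of their groups for the heavy chain gene Myh6, at -1.68 and -1.08, and the highest for Tnc, an extracellular matrix protein, at 1.15 and 0.09, and for Ptprn, of secretory granules, at 0.03 and 0.92. Without these 2 arrays, an omission chosen after seeing the data, 20 of 23 macrophage markers were above 0, 13 at an unadjusted p under 0.05, and 31 of 34 cell cycle genes, 18 of them.

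Hsd3b3, a 3-beta-hydroxysteroid dehydrogenase, was low in 2 treated animals, at -3.77 and -1.04 against 4.61 to 5.67 in the other treated arrays, and in 1 control, at -1.50 against 5.26 to 5.88. Its near-identical family members can share the probe's target. Kcne2, a potassium channel subunit, was at -4.07 in treated replicate 2 and at 2.63 to 4.27 in the other treated arrays, against 2.67 to 4.16 in controls. Serpinc1, antithrombin, was low in 2 of 6 treated and 3 of 5 control arrays, at -2.65 and -4.56 against -3.78, -4.28 and -4.74. Akr1c18, which inactivates progesterone in the regressing corpus luteum, was at 5.28 to 6.73 in all treated arrays and at -4.23 in control replicate 5 only, with the other controls at 5.95 to 7.02.

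**Figure D5:**
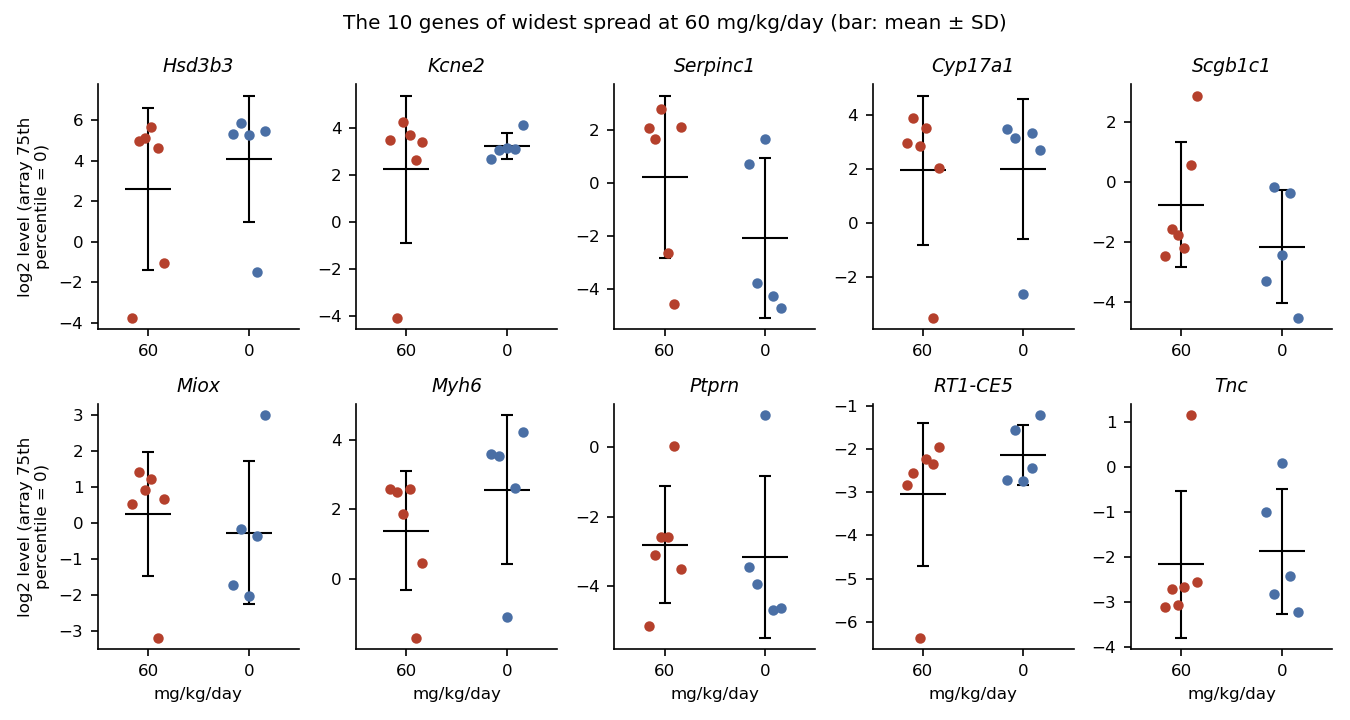
The panels plot the 10 genes with the largest SD over the 6 arrays at 60 mg/kg/day, as the log2 level relative to the array's 75th percentile, with 60 mg/kg/day (red) left of 0 mg/kg/day (blue, 5 arrays) and bars for mean ± SD. Single arrays stand apart by several log2 units, such as Cyp17a1 at -3.52 and Kcne2 at -4.07 among the treated.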

How the data were processed

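Ovarian RNA (100 ng per sample, per the labels) was labelled with 1 colour, and the deposited files give each spot's intensity as the background-corrected processed signal of Feature Extraction 11.5.1.1, per the file headers. The series' deposited table holds the authors' log2 values, with column medians of -0.07 to 0.08. Its deviations correlated with the scanner values at r of 0.947 to 0.991. Its scale is thus log2 and its direction that of the scanner values, and its centring baseline is unknown. The authors' normalization is not given in the sources used here.

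Values are log2 processed signal minus the array's 75th percentile over non-control spots. Spots marked as outliers were left out, and spots of a probe averaged. Accessions matched to GRCr8 gave 1 symbol to 18758 probes and none to 11609. Akr1c18 is listed there as Akr1c3. Probes well above background (on more than 0.5 of their spots) on at least 4 of 20 arrays were tested. The spot rule was first "at least 0.5" and was changed after its counts were seen, to match earlier processing of these data; both counts are given. Group means were fitted with limma 3.58.1 (R 4.3.3) over all 20 arrays, with Benjamini-Hochberg adjustment over all probes. The fit had no slide term, so a p measures the spread between animals of separate litters together with that between slides. In a limma fit of slide alone, 5056 probes differed between slides at an adjusted p under 0.05. On simulated data the fit recovered 42.0%, 69.2%, 87.2% and 90.0% of changes of 1.5, 2, 3 and 4-fold in this comparison. The simulated noise was independent for each probe and array, with no slide effect, and changed probes were added to it. These shares therefore need not hold on the real arrays, where slides differed. The number of arrays limits the precision.

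Members of lists, the lists, motifs and fixed genes were chosen with earlier results of these data known. Named genes needed a regular symbol and signal well above background on every array of a group. Some, such as Cd274 and Gzmc, were therefore admitted only through the group where they are brighter. They were the 30 of smallest p, the 8 highest and 8 lowest differences at an unadjusted p under 0.05, the 10 of largest SD at 60 mg/kg/day, fixed genes, and up to 4 members of smallest p per list. The first and second rules took a gene's probe of smallest p, the lists and fixed genes its brightest. Other list members were named after their values were seen. Some genes the rule chose are not reported here. Alternatives were quantile normalization, normexp (offset 50, on the median signal, since the mean signal planned for it was not used here), the authors' table, other filters, slide and replicate blocks, and leaving out arrays or slides. Where every array of a group was near background at a probe, folds are bounds, set on each array by the dimmest signal counted as well above background or by the probe itself if brighter. Figures used matplotlib 3.10.9.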

Additional observations from a re-analysis of the deposited data

Results flagged for a closer look

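Each gene was checked in each group for a single array apart from the rest, by the gap to the nearest array relative to the group's range. Chance gives about 1 in 20 for independent tests. The genes were chosen partly by their values on these arrays and can vary together, so that rate cannot be set against the count. Single arrays stood apart in 16 of 218 tests of a gene in a group. Control replicate 3 did so for Slc25a2 at -6.44, Akr1b8 at 2.89, Drgx at -5.83, Cyp17a1 at -2.62 and Fermt3 at -2.22 (log2 levels), and treated replicate 5 for Cyp17a1 at -3.52, Lhcgr at -3.63, the luteinising hormone receptor, and Fam181b at -4.80. Treated replicate 6 stood apart for Trim31 at -4.71 and Lkaaear1 at -4.81, treated replicate 1 for Akr1b8 at 0.0904, and treated replicate 2 for Tusc3 at 0.56. Control replicate 5 stood apart for Akr1c18 at -4.23 and Por at -0.33, control replicate 4 for Slbp at -2.40, and control replicate 1 for Ahr at -4.45.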

How the results depend on the processing

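0 probes passed an adjusted p under 0.05 in limma under any setting run. The 1464 probes at an unadjusted p under 0.05 became 2386 with the replicate block (461 higher, 1925 lower), in which treated replicate 6 has no partner; leaving that array out without a block gave 1882 (505 higher, 1377 lower). They were 3083 without the filter on dim probes, where more probes were tested, and ranged from 961 without control replicate 1 to 2259 without control replicate 3. With at least 0.5 of the spots as the filter, 23795 probes were tested and 1508 were at that p. Correlations of same-numbered arrays' deviations were 0.18, -0.06, 0.05, -0.15 and -0.31, which shows no general likeness of same-numbered arrays. The arrays of replicates 4 and 5 lay on different slides, so these values cannot decide whether the numbers pair the animals.

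Of 109 named genes or probes, 100 had 1 direction in all settings other than within slides. Within slides 1, 2 and 3, 7, 19 and 8 turned, 30 in at least 1 slide. Of 35 lists 10 had a median of the pooled sign in all 3 slides. Cyp17a1 turned to 0.75 with slide as a block, 0.015 with normexp, -1.20 to 1.05 without single arrays, 0.0885 and 0.61 without slides 1 and 3, and 0.77 without both arrays with a high oviduct list. Akr1c18 turned to -0.51 without control replicate 5 (up to 2.30 without single arrays) and -0.31 without slide 3. Prlr, the prolactin receptor, turned to 0.0351 with slide as a block, -0.27 to 0.0362 without single arrays and 0.11 without slide 1. Fshr turned to 0.12 with slide as a block, -0.21 to 0.0949 without single arrays and 0.16 without slide 2. Without slide 1, Esr1 was -0.11, Gdf9 -0.44 and Zp3 -0.27; without slide 3, Lhcgr was 0.0376; with normexp, Egr3 was 0.0839. The cause was not tested. Dim genes such as Egr3 lie near background, which limits them.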
